A study of Oryza sativa with 9 samples.

Results

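Glutathione transferases join the thiol of glutathione, a small peptide, to electrophilic compounds, and the conjugates are then carried into the vacuole. In plants the tau and phi classes are the most numerous and are often found as tandem arrays of neighbouring copies. They are best known for the detoxification of herbicides and for their response to oxidative and other stresses. The genes described here are the loci that lie in 4 such arrays of the rice genome, chosen by locus number: LOC_Os10g38100 to LOC_Os10g38800 on chromosome 10, LOC_Os01g72100 to LOC_Os01g72180 and LOC_Os01g27210 to LOC_Os01g27400 on chromosome 1, and LOC_Os03g04220 to LOC_Os03g04260 on chromosome 3. These ranges hold 66 of the 34119 genes of the table, with 45 on chromosome 10, 8 and 9 in the chromosome 1 arrays and 4 on chromosome 3. The table gives locus numbers without names, so a few loci in the ranges may be other genes, and the class of a single locus is not stated.

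Whole seedlings of rice, 14 days old, were treated with 20% PEG8000, a polymer that draws water out of roots, for 3 h before RNA was taken. NIP_PEG is the wild type, and 708OE_PEG is the line SDG708-YFP-1, which overexpresses SDG708, a SET-domain histone methyltransferase, and whose name carries YFP, a fluorescent protein tag. Each genotype had 3 libraries. Each NIP_PEG repeat has 2 lanes, which share 1 column of the table, so that there are 9 samples in all. No lane is stated for 708OE_PEG, and any effect of lane cannot be told apart from genotype. Every group received PEG, so the comparison is between genotypes under treatment and shows nothing about the response to PEG itself. The labels name 1 overexpression line and do not give the promoter of the transgene.

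Expression was measured as FPKM, a read measure corrected for gene length and sequencing depth. The FPKM steps gave library sizes from 17.4 to 24.9 M reads in wild-type plants and from 13.3 to 18.1 M reads in the overexpression line. The reads recovered from those steps summed to 1.05 to 1.07 of these sizes in wild-type plants. In the overexpression line they summed to 0.971 to 0.996. With libraries scaled to those sums, the median log2 fold change over all tested genes was 0.04 instead of -0.04. LOC_Os04g34976, the locus numbered just below that of SDG708, had 4.66 to 5.91 FPKM in wild-type plants and 147 to 154 FPKM in the overexpression line (exact two-sided permutation test, p = 0.1, the smallest that 3 libraries against 3 allow), while the next higher locus of the table, LOC_Os04g34984, had ranges that overlapped. The locus of SDG708 itself has no row in the table, and whether LOC_Os04g34976 stands for it was not tested. Nothing in the labels states whether the repeats were separate cultures, so the p-values reflect a spread among libraries that may be technical. Markers of green shoot tissue were present. The 5 genes chosen for the Rubisco small subunit and for light-harvesting proteins do not cover those families. All 5 rose in the overexpression line, with log2 fold changes between 0.53 and 0.91, where 14.3% of all tested genes rose. Of 2 root markers, the silicon transporter Lsi1 had 2.39 to 3.27 FPKM and did not pass, and Lsi2 was listed at 0 in all 6 libraries. In whole seedlings, a change in the amount of a tissue and a change of RNA per cell cannot be told apart. The part of tissue makeup in the results below was not tested.

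The chromosome 10 array held most of the members (45 of 66), most of the summed FPKM and most of the differences. Of the 66 members, 37 were tested because at least 3 of the 6 libraries reached an FPKM of 1. Of these, 13 rose in the overexpression line, 2 fell and 22 did not pass (limma, Benjamini-Hochberg adjusted p below 0.05 over all tested genes). Over all 18569 tested genes 14.3% rose and 20.0% fell, so rises were a larger share of the tested members (35.1%) and falls a smaller share (5.41%). The median log2 fold change was 0.13 among tested members and -0.04 over all genes. Of the 13 rises, 12 lay on chromosome 10, as did both falls and 26 of the 37 tested members. LOC_Os10g38340 and LOC_Os10g38600 reached testing through the overexpression libraries alone, and LOC_Os10g38229, which fell, through the wild type alone. Such genes could only differ in the direction seen.

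The number of rises held between 12 and 17 when libraries were rescaled or the pseudocount was changed, and among the 21 members with a mean FPKM of 5 or more, 6 rose (28.6%), where 1592 of all 10042 such genes did (15.9%). Scaling moved the balance of calls. With libraries scaled to the reads recovered from the table, 17 members rose and 2 fell while 3682 genes rose and 2079 fell over the whole table, and after quantile normalization 13 members rose and 4 fell.

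**Figure D1:**
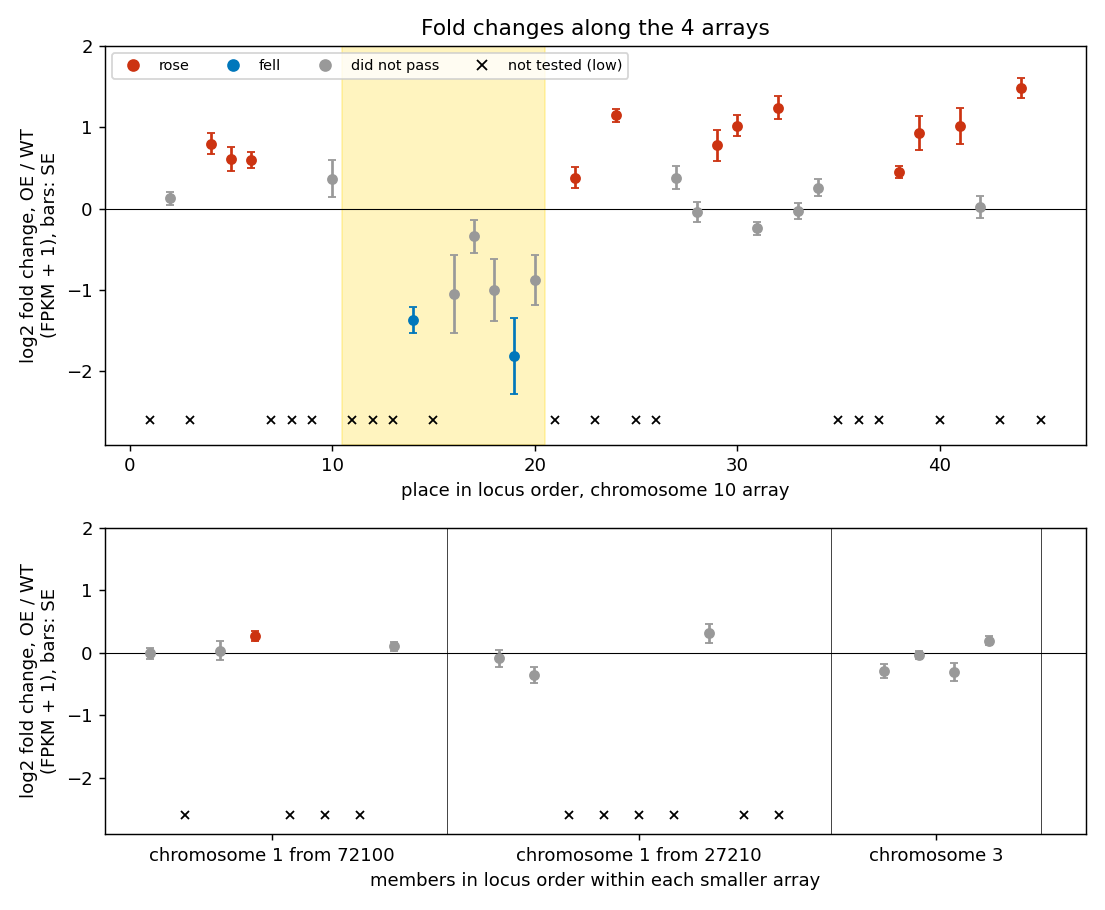
Log2 fold change of each tested member (vertical axis, overexpression over wild type on the log2(FPKM + 1) scale, bars show the SE) in locus order along the chromosome 10 array (upper panel) and the 3 smaller arrays (lower panel); crosses at the foot mark members too low to test and the shaded span marks the 10 loci from LOC_Os10g38212 to LOC_Os10g38278. The 12 rises of chromosome 10 lie on both sides of the shaded span, and both falls lie inside it.

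The most abundant member, LOC_Os10g38700, rose by a modest fold. It had 103, 91.8 and 88.8 FPKM in wild-type replicates 1, 2 and 3 and 133, 130 and 125 FPKM in overexpression replicates 1, 2 and 3, so the groups did not overlap. Its log2 fold change was 0.45 (SE 0.07, limma adjusted p = 0.0035), from a mean of 94.7 ± 7.74 to 129 ± 4.20 FPKM (SD, n = 3 each). It carried 27.3% of the summed FPKM of its array, on 2215 to 2863 reads per library. All 3 overexpression libraries lay above all 3 wild-type libraries for 16 of the 37 tested members and below them for 4, against 20.0% above and 30.7% below over all tested genes.

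LOC_Os10g38580 combined a high level with a larger fold. Its FPKM was 13.6, 20.0 and 16.2 in wild-type plants and 31.5, 34.9 and 36.4 in the overexpression line. The lowest overexpression value was well clear of the highest wild-type value, and the log2 fold change was 1.02 (SE 0.13, limma adjusted p = 0.00087). LOC_Os10g38780 had the highest log2 fold change of the tested members on the log2(FPKM + 1) scale, although LOC_Os10g38600 was above it with a pseudocount of 0.1 (2.55 against 1.63) and with voom (2.87 against 1.66). It had 5.09, 5.53 and 5.36 FPKM in wild-type plants and 15.3, 14.5 and 20.8 FPKM in the overexpression line, and the log2 fold change was 1.48 (SE 0.12, limma adjusted p = 0.00015). Overexpression replicate 3 was the highest there, and the 3 wild-type libraries lay close together. LOC_Os10g38360 had 6.32, 7.94 and 7.35 FPKM in wild-type plants and 17.3, 17.2 and 16.8 FPKM in the overexpression line. The overexpression libraries were nearly level, and its log2 fold change was 1.15 (SE 0.08, limma adjusted p = 6.5e-05).

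The other rises of at least 2-fold came from members that were low in the wild type. LOC_Os10g38600 was read 3, 9 and 6 times in wild-type plants and 21, 29 and 50 times in the overexpression line. Those reads gave 0.161, 0.336 and 0.279 FPKM in wild-type plants and 1.47, 1.98 and 2.56 FPKM in the overexpression line. The log2 fold change was 1.24 with a pseudocount of 1, which understates changes at this level, and 2.94 in the authors' deposited table. LOC_Os10g38730 had 0.878, 2.26 and 0.644 FPKM in wild-type plants and 3.44, 3.45 and 3.30 FPKM in the overexpression line. Wild-type replicate 2 stood above the other two, yet below every overexpression library (log2 fold change 1.02, SE 0.22, limma adjusted p = 0.010). On the log2(FPKM + 1) scale, 5 of the 37 tested members rose by at least 2-fold, all on chromosome 10, against 1.60% of all tested genes. LOC_Os10g38600, 1 of these 5, reached testing through the overexpression libraries alone and could only differ upward. The count of 5 depends on the pseudocount. It was 1 with a pseudocount of 5 (0.517% of all genes), 7 with 0.1 (2.78%) and 8 with voom on recovered reads (2.94%). By the authors' deposited values it was also 8 of these 37. With members too low to test included it was 14 of 61 (23.0%), where 3.67% of 31262 genes passed.

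A run of 3 neighbours near the start of the array, LOC_Os10g38140, LOC_Os10g38150 and LOC_Os10g38160, rose together. LOC_Os10g38140 had 6.84, 10.1 and 7.91 FPKM in wild-type plants and 15.2, 13.3 and 16.5 FPKM in the overexpression line (log2 fold change 0.80, SE 0.13, limma adjusted p = 0.0031). LOC_Os10g38160 had 3.33, 4.30 and 3.48 FPKM in wild-type plants and 5.95, 6.58 and 5.72 FPKM in the overexpression line (log2 fold change 0.60, SE 0.10, limma adjusted p = 0.0029). In neither gene did the groups overlap. LOC_Os10g38150, between them, was lower, with 0.644, 1.35 and 0.931 FPKM in wild-type plants and 1.82, 1.64 and 2.52 FPKM in the overexpression line. The log2 fold change of 0.61 had a limma adjusted p of 0.019, which was 0.060 without NIP_PEG replicate 3, 0.068 without 708OE_PEG replicate 3 and 0.051 with no filter on low genes.

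Among the remaining rises of the array, LOC_Os10g38710 had 1.09, 1.29 and 1.60 FPKM in wild-type plants and 3.05, 2.36 and 5.36 FPKM in the overexpression line (log2 fold change 0.93, limma adjusted p = 0.012). Replicate 3 of the overexpression line was the highest, as for LOC_Os10g38780. LOC_Os10g38540 went from a mean of 1.11 ± 0.532 to 2.57 ± 0.524 FPKM (SD, n = 3 each), with a log2 fold change of 0.78 and a limma adjusted p of 0.017. That call was lost without 708OE_PEG replicate 2 (limma adjusted p = 0.058) or 3 (0.066). LOC_Os10g38340 rested on 9 to 28 reads per library and had a limma adjusted p of 0.048, which rose above the threshold without any 1 of NIP_PEG replicates 2 and 3 and 708OE_PEG replicates 1, 2 and 3 (0.054 to 0.13). It also did so with a pseudocount of 0.1 (limma adjusted p = 0.064), with no filter (0.085), after quantile normalization (0.14), with voom (0.066), with the replicate block (0.063) and with 708OE_PEG replicates 1 and 2 averaged (0.094).

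Most of the abundant members did not pass, as was so for 12209 of all 18569 tested genes. Of the 10 members with the highest mean FPKM, 2 rose, LOC_Os10g38700 and LOC_Os10g38580, and 8 did not pass, against 14.3% rising over all genes. LOC_Os10g38740 had 27.2, 39.0 and 35.5 FPKM in wild-type plants and 32.4, 36.9 and 32.8 FPKM in the overexpression line, and its groups overlapped throughout (log2 fold change 0.02, SE 0.13). LOC_Os10g38110 had a mean of 28.3 ± 2.31 FPKM in wild-type plants and 31.2 ± 2.12 FPKM in overexpression plants (SD, n = 3 each; limma adjusted p = 0.23). LOC_Os10g38470 and LOC_Os10g38630 leaned upward, with log2 fold changes of 0.38 and 0.26, and did not pass (limma adjusted p = 0.072 and 0.097). Both passed with libraries scaled to recovered reads (0.039 and 0.036) and by the authors' deposited p-values, adjusted here (0.023 and 0.046), and LOC_Os10g38470 passed without NIP_PEG replicate 2 (0.0050). LOC_Os10g38206 had 25.9, 54.6 and 44.3 FPKM in wild-type plants and 55.5, 47.4 and 52.3 FPKM in the overexpression line. Wild-type replicate 1 was far below the rest, and the gene passed without NIP_PEG replicate 2 (log2 fold change 0.59, limma adjusted p = 0.044) but not with all libraries (log2 fold change 0.37, limma adjusted p = 0.24).

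**Figure D2:**
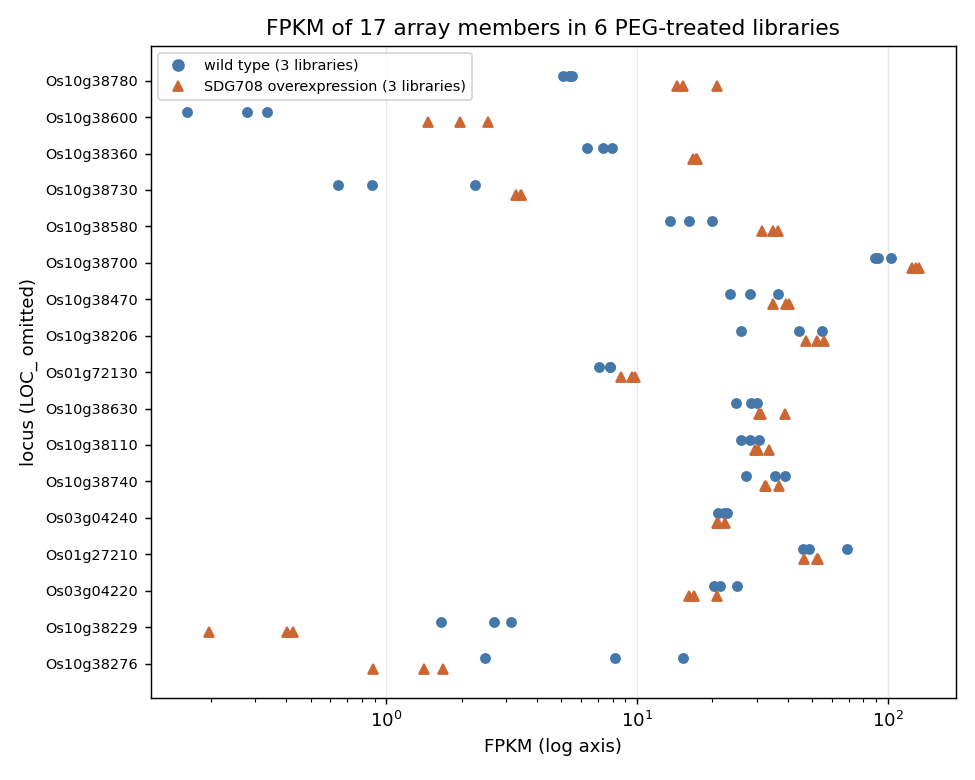
FPKM (horizontal log axis) of the 17 members named by rule, ordered by log2 fold change; circles are the 3 wild-type libraries and triangles the 3 overexpression libraries. Triangles are clear of the circles for the 5 rises at the top and for both falls at the bottom, and the groups overlap for most of the abundant members between.

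A stretch of 10 consecutive loci inside the chromosome 10 array, from LOC_Os10g38212 to LOC_Os10g38278, went the other way. It was singled out after its values were seen, and its counts are a description. Of its 6 tested loci, 2 fell and 4 did not pass by limma, while 4 were lower at an unadjusted p below 0.05. With voom 1 fell, and by the authors' deposited p-values 7 of the 10 loci did. The tested loci had log2 fold changes from -1.81 to -0.34 around a median of -1.02. No locus of the stretch rose, by limma (0 also at an unadjusted p below 0.05), by voom on recovered reads or by the authors' deposited p-values. Both limma falls were at least 2-fold, a size that 0.334% of all tested genes reached. LOC_Os10g38229, 1 of the 2, reached testing through the wild-type libraries alone and could only differ downward. Over all tested genes, 20.0% fell by limma and 4954 of 18569 were lower at an unadjusted p below 0.05. Voom called 21.2% of its genes lower, and the authors' deposited p-values 16.2%. The table does not say what these loci encode, and they may not be glutathione transferases.

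LOC_Os10g38229 had 1.66, 2.69 and 3.15 FPKM in wild-type plants and 0.401, 0.424 and 0.196 FPKM in the overexpression line. Its 3 wild-type libraries held 65, 151 and 142 reads against 12, 13 and 8, and the groups did not overlap. The log2 fold change was -1.37 (SE 0.16, limma adjusted p = 0.00077) with a pseudocount of 1, -2.56 with 0.1, -2.93 with voom and -2.92 in the authors' deposited table. LOC_Os10g38276 had 15.3, 2.49 and 8.19 FPKM in wild-type plants and 1.42, 1.68 and 0.890 FPKM in the overexpression line. All overexpression libraries were below all wild-type ones, and wild-type replicate 2 lay much nearer to them than to the other wild-type libraries. Its log2 fold change of -1.81 (SE 0.47) passed with a limma adjusted p of 0.020. It missed the threshold without NIP_PEG replicate 3 (limma adjusted p = 0.069), 708OE_PEG replicate 1 (0.053) or 708OE_PEG replicate 3 (0.075). The same held with no filter on low genes (0.062), with voom (0.059) and with 708OE_PEG replicates 1 and 2 as 1 sample (0.052).

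Replicates differed among themselves across this stretch. Its summed FPKM was 38.6, 13.1 and 34.0 in wild-type replicates 1, 2 and 3 and 9.35, 9.65 and 5.36 in overexpression replicates 1, 2 and 3. Wild-type replicate 2 thus stood closer to the overexpression line than to the other wild-type libraries. The median coefficient of variation of the 6 tested loci was 59.9% in the wild type, against 15.6% for the 31 other tested members and 9.87% over all tested genes. In the overexpression line the same medians were 38.5%, 7.92% and 6.18%. The 6 loci had mean FPKM from 1.14 to 5.92, while the sets beside them hold genes of all levels. The part of low level in this spread was not tested. LOC_Os10g38238 had 3.14, 0.515 and 4.48 FPKM in the wild type, and LOC_Os10g38274 had 8.20, 4.41 and 12.0 FPKM. Neither passed in the limma fit of all libraries (adjusted p = 0.13 and 0.074), and both passed without NIP_PEG replicate 2 (0.0090 and 0.019) and by the authors' deposited p-values (0.041 and 0.032). LOC_Os10g38238 also passed with the replicate block (limma adjusted p = 0.047). LOC_Os10g38278 passed without NIP_PEG replicate 1 (limma adjusted p = 0.012) or 2 (0.016), and LOC_Os10g38272 without NIP_PEG replicate 2 (0.023). LOC_Os10g38278 passed as well with the replicate block (0.036), a pseudocount of 0.1 (0.041), quantile normalization (0.042) and by the authors' deposited p-values (0.0069). Without NIP_PEG replicate 2, 7 members of the arrays fell, 6 of them in this stretch and the other LOC_Os03g04220. That is 7 of 37 (18.9%), against 4098 of 18569 genes (22.1%) in the same fit.

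**Figure D3:**
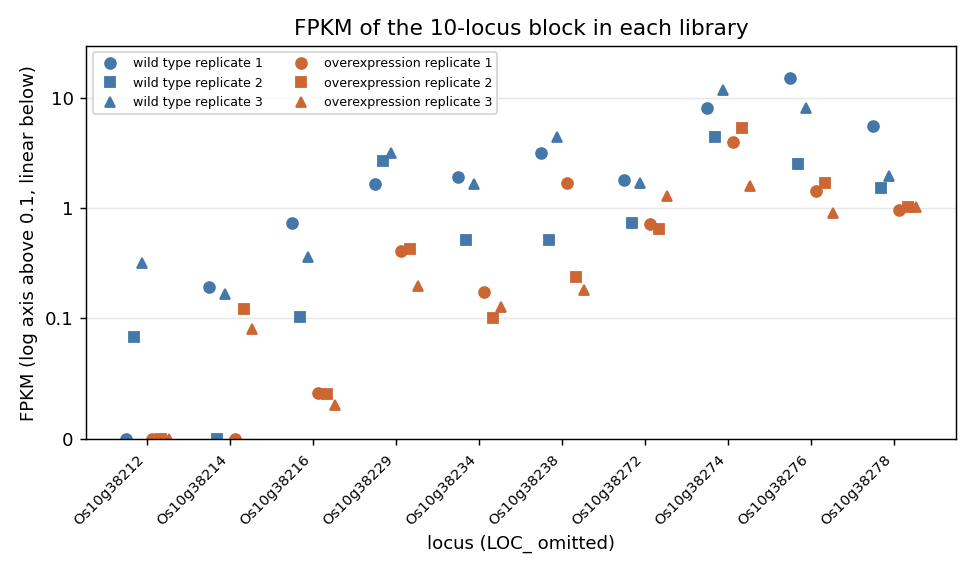
FPKM of the 10 consecutive loci from LOC_Os10g38212 to LOC_Os10g38278 in each library (vertical axis, log above 0.1 and linear below; marker shapes give the replicate, blue the wild type and orange the overexpression line). Wild-type replicates 1 and 3 are above the overexpression libraries for most loci, and wild-type replicate 2 often lies near them.

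The whole chromosome 10 array held 26 tested members, of which 12 rose (46.2%) and 2 fell (7.69%), with a median log2 fold change of 0.37. Outside the stretch there were 20, of which 12 rose and 8 did not pass, with a median of 0.52. The stretch was set apart because its loci were lower in the overexpression line, so the higher median and the lack of falls outside it follow in part from that choice. At an unadjusted p below 0.05, 1 of the 20 was lower, and voom and the authors' deposited p-values called 0 lower. The summed FPKM of the array without the stretch was 305, 362 and 331 in wild-type plants and 458, 441 and 452 in the overexpression line, so every overexpression library was above every wild-type library. The mean sum was 332 ± 28.6 in wild-type plants and 450 ± 8.97 in overexpression plants (SD, n = 3 each), a ratio of 1.35. With the stretch included the ratio was 1.27, and over all 66 members it was 1.18. LOC_Os10g38700 alone accounted for 28.6% of the sum outside the stretch, and the 5 most abundant loci for 65.7%.

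**Figure D4:**
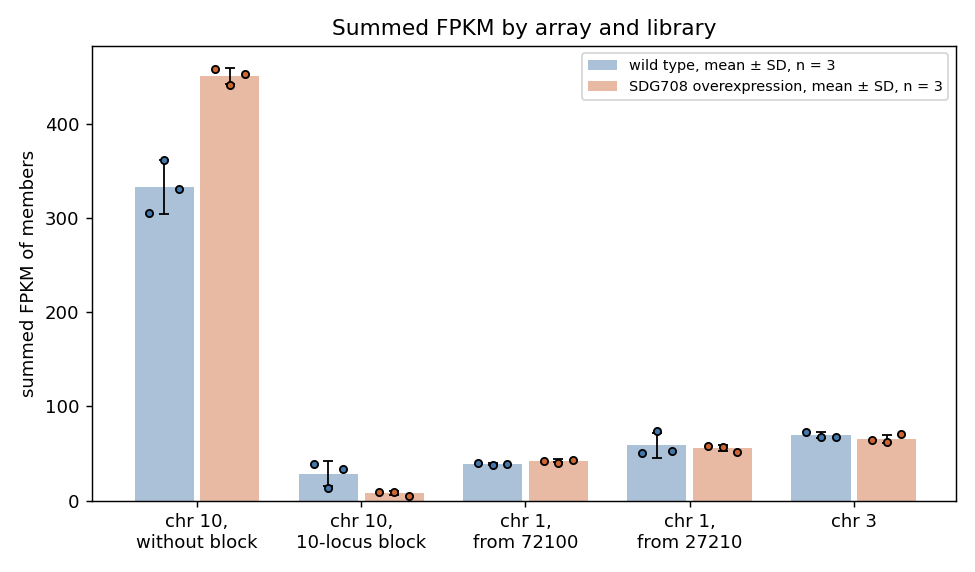
Summed FPKM of all members of each array (bars from 0 show the mean of 3 libraries, lines the SD, points the single libraries), with the chromosome 10 array divided into the 10-locus stretch and the rest. The rest of the chromosome 10 array is higher in all 3 overexpression libraries (441 to 458 against 305 to 362), and the sums of the chromosome 1 array that starts at LOC_Os01g27210 and of chromosome 3 overlap between genotypes.

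The 3 smaller arrays held 11 tested members, and 1 of these rose, where 14.3% of all tested genes did. LOC_Os01g72130 had 7.80, 7.07 and 7.84 FPKM in wild-type plants and 8.66, 9.58 and 9.84 FPKM in the overexpression line. The groups were close and did not overlap (log2 fold change 0.27, SE 0.08, limma adjusted p = 0.025). This call did not hold without NIP_PEG replicate 2 (limma adjusted p = 0.051) or 3 (0.056), without 708OE_PEG replicate 2 (0.087) or 3 (0.097), and with voom on recovered reads (0.080). The other 3 tested members of that array did not pass, and its summed FPKM was 38.2 to 39.5 in wild-type plants and 40.3 to 43.5 in the overexpression line.

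The chromosome 1 array that starts at LOC_Os01g27210 was carried by that locus, which made up 91.7% of its summed FPKM. LOC_Os01g27210, the second most abundant of all 66 members, had 45.8, 68.6 and 48.7 FPKM in wild-type plants and 52.5, 52.2 and 46.4 FPKM in the overexpression line. Wild-type replicate 2 was the highest, and the groups overlapped (log2 fold change -0.09, limma adjusted p = 0.66). That change was 0.09 without NIP_PEG replicate 2. None of the 3 tested members of this array passed by limma or by voom. At an unadjusted p below 0.05, 0 were higher and 1 was lower, while the authors' deposited p-values called 3 members higher and 1 lower, untested low members included. Over all 18569 tested genes, 3534 were higher and 4954 lower at an unadjusted p below 0.05. The authors' deposited p-values called 12.7% of all genes higher and 16.2% lower.

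On chromosome 3 all 4 members were tested, and none passed by limma or by voom on recovered reads. At an unadjusted p below 0.05, 1 was higher and 1 lower, against 3534 and 4954 of all 18569 tested genes. The authors' deposited p-values, adjusted here, called 1 lower, against 16.2% of all genes. LOC_Os03g04220 had 25.1, 20.2 and 21.4 FPKM in wild-type plants and 16.2, 16.9 and 20.9 FPKM in the overexpression line. Overexpression replicate 3 fell within the wild-type range (log2 fold change -0.29, limma adjusted p = 0.077), and the gene passed without 708OE_PEG replicate 3 (0.039) or NIP_PEG replicate 2 (0.048). LOC_Os03g04240 was nearly level, with a mean of 22.1 ± 0.870 FPKM in wild-type plants and 21.4 ± 0.809 FPKM in overexpression plants (SD, n = 3 each). The summed FPKM of the 4 members was 67.3 to 73.0 in wild-type plants and 61.9 to 70.6 in the overexpression line, with overlapping groups.

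The remaining 29 members were too low to test. Of these, 5 were listed at 0 in every library, and the highest FPKM in any library was 1.93, for LOC_Os10g38234 in the wild type. In the authors' deposited table, 6 of them passed upward and 2 downward at an adjusted p below 0.05, where 12.7% of 31262 genes were higher and 16.2% lower. Those shares cover genes of all levels and are no like background for low members. Of the 3960 higher and 5062 lower genes, 3171 and 4804 were among the 18569 genes tested here, so low genes passed less often. LOC_Os01g27340 was the clearest rise of the low members, with 6, 14 and 1 reads in wild-type plants and 26, 27 and 24 reads in the overexpression line. It had 0.0309 to 0.348 FPKM in wild-type plants and 0.818 to 1.23 FPKM in the overexpression line, without overlap, and the authors' deposited log2 fold change was 2.38. LOC_Os10g38234 went the other way, with 74, 28 and 73 reads in wild-type plants and 5, 3 and 5 in the overexpression line. Its groups did not overlap either, and its deposited log2 fold change was -3.37. LOC_Os10g38189 had 0 reads in all wild-type libraries and 1, 0 and 2 in the overexpression libraries, a depth at which no difference can be read.

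The ranges were set by locus number, and the change in level at their ends varied. On chromosome 10, the last locus inside, LOC_Os10g38800, had 0.486 FPKM in wild-type plants and 1.08 in the overexpression line, and the first locus outside, LOC_Os10g38820, had 2.33 and 2.29. On chromosome 3 the last locus inside, LOC_Os03g04260, had 18.4 and 21.1 FPKM, and the first outside, LOC_Os03g04270, had 7.57 and 7.25.

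The loci beside the arrays gave a further background. For each array the 20 loci before and the 20 after it in locus order were taken, 160 in all, of which 111 were tested. Of these 13 rose and 22 fell, which is 11.7% and 19.8%, close to the shares over all genes, and none rose by at least 2-fold with a call. Around the chromosome 10 array itself 6 of 30 tested neighbours rose and 3 fell, with log2 fold changes from -0.43 to 0.66 around a median of 0.09. The difference between the array and its neighbours was not tested.

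No rise passed by limma in a list of 13 other genes that make or use glutathione. The list covers glutathione synthesis, glutathione reductases, dehydroascorbate reductases, glutathione peroxidases and a vacuolar ABC transporter of glutathione conjugates. Of its 13 members, 0 rose, 2 fell (15.4%) and 11 did not pass by limma, where 14.3% and 20.0% of all tested genes rose and fell. The median log2 fold change was -0.12, against -0.04 over all genes. At an unadjusted p below 0.05, 2 of the list were higher and 6 lower, against 3534 and 4954 of all 18569 tested genes. Voom on recovered reads called 0 higher and 3 lower (14.6% and 21.2% over all its genes). The authors' deposited p-values called 1 higher and 6 lower (12.7% and 16.2% over all genes). LOC_Os02g56850, listed as a glutathione reductase that restores reduced glutathione, had 63.2, 59.8 and 61.5 FPKM in wild-type plants and 43.4, 44.4 and 41.7 FPKM in the overexpression line (log2 fold change -0.50, SE 0.06, limma adjusted p = 0.00077). LOC_Os03g24380, listed as a glutathione peroxidase, had 42.8, 36.8 and 38.5 FPKM in wild-type plants and 27.6, 28.2 and 26.7 FPKM in the overexpression line (log2 fold change -0.50, limma adjusted p = 0.0018). In both genes every overexpression library was below every wild-type library. LOC_Os05g03820, listed as the synthetase of the first step of glutathione synthesis, was at 15.4 ± 0.467 FPKM in wild-type plants and 13.3 ± 1.12 FPKM in overexpression plants (SD, n = 3 each; limma adjusted p = 0.068).

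Glutathione transferases listed outside the arrays moved both ways. Of 20 loci 16 were tested, and 5 rose (31.2%), 5 fell (31.2%) and 6 did not pass, where 14.3% and 20.0% of all genes rose and fell, with a median log2 fold change of -0.14. LOC_Os07g28480 had 8.02, 9.52 and 8.65 FPKM in wild-type plants and 24.6, 24.3 and 27.5 FPKM in the overexpression line (log2 fold change 1.44, SE 0.08, limma adjusted p = 1.7e-05). LOC_Os09g29200, the most abundant of the list, had 117, 142 and 133 FPKM in wild-type plants and 201, 198 and 182 FPKM in the overexpression line (log2 fold change 0.56, limma adjusted p = 0.0024). LOC_Os06g12290 showed the largest fall, from 24.4, 23.8 and 21.4 FPKM to 14.9, 15.1 and 10.9 FPKM (log2 fold change -0.74, limma adjusted p = 0.0032). In these 3 genes the groups did not overlap. Of the smaller changes among the 10 called genes, 4 missed the threshold under some of 17 alternatives. LOC_Os04g35560 did so under 9 (limma adjusted p up to 0.22, with libraries scaled to recovered reads), LOC_Os01g70770 under 7 (up to 0.098) and LOC_Os01g55830 under 6 (up to 0.079). LOC_Os01g49710 did so under 2, without NIP_PEG replicate 3 (0.052) or 708OE_PEG replicate 3 (0.051). The names of both lists rest on general knowledge of rice, and 2 of the 33 loci could be compared with a reference symbol, both on the stated chromosome.

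**Figure D5:**
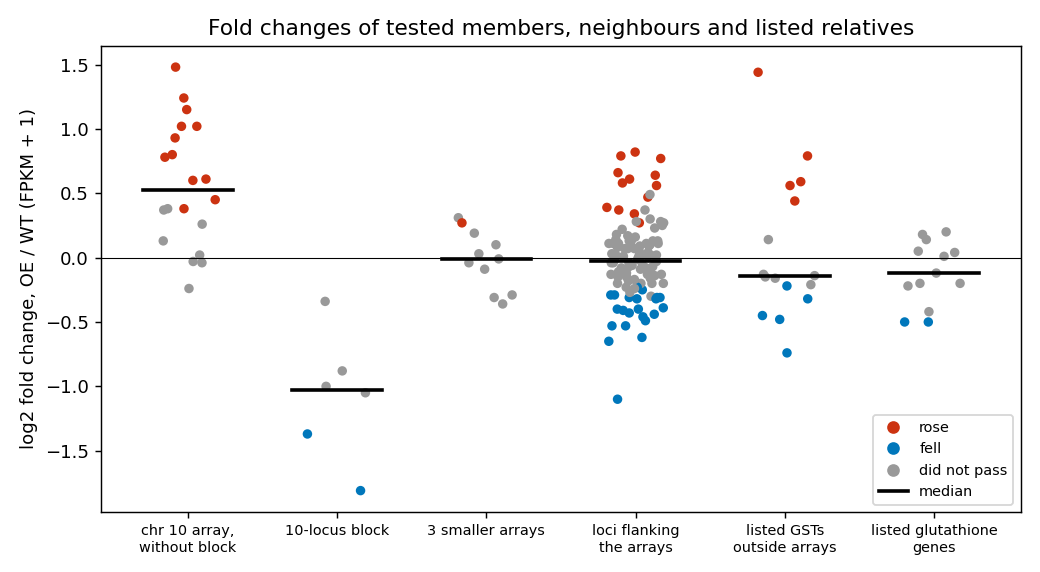
Log2 fold changes (vertical axis, overexpression over wild type on the log2(FPKM + 1) scale) of tested members of the chromosome 10 array without the 10-locus stretch, of the stretch, of the 3 smaller arrays, of loci flanking the arrays and of the listed genes elsewhere; each point is a gene, coloured by its call, and lines are medians. The medians are 0.52 for the chromosome 10 array without the stretch, -1.02 for the stretch and -0.03 for the flanking loci.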

How the data were processed

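RNA of PEG-treated seedlings was sequenced as stranded polyadenylated libraries, per the labels' protocols. FPKM values per library were deposited with the authors' log2 fold change and the authors' p-value per gene, per the file headers. HISAT2, featureCounts, DESeq2, deepTools, SAMtools, cutadapt and FastQC appear in the submitters' processing notes, without roles. No versions, genome build, annotation or strand setting were given in the sources used here, nor whether p-values were adjusted. Neighbouring copies may share reads, so values of single array members are uncertain where the authors' counting could split them.

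The main test was limma 3.58.1 (R 4.3.3) with a variance trend on log2(FPKM + 1), two-sided, over genes that reached an FPKM of 1 in 3 or more of the 6 libraries, with Benjamini-Hochberg adjustment over all 18569 tested genes. It was tested on simulated data. Whole reads were recovered from FPKM steps for 99.9% of genes with any value (tolerance 0.02 of a read), and a gene whose reads share a common factor may be given too few. A read in a 1 kb gene was worth 0.0402 to 0.0752 FPKM. The authors' p-values were adjusted here over 31262 genes.

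The members and lists were chosen with earlier results of these data known. The genes described singly were every member called with at least a 2-fold change, the 10 with the highest mean FPKM, the 3 largest called changes of each array and the 2 largest falls. Other called members, the 10-locus stretch and single genes outside the arrays were added after their values were seen. Locus numbers could not be tied to reference sequences, so no sequence is shown. Alternatives varied the pseudocount, filter, scaling, test and libraries.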

Additional observations from a re-analysis of the deposited data

How the results depend on the processing

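With 13 members higher and 2 lower as the reference, a mean FPKM of at least 5 gave 6 and 1, and the authors' deposited p-values gave 22 and 9 over 61 members. The number of lower members was 4 after quantile normalization, 1 with voom on recovered reads, 1 with 708OE_PEG replicates 1 and 2 as 1 sample, and 0 without the 10 loci from LOC_Os10g38212 to LOC_Os10g38278, an alternative chosen after seeing the data. Leaving out each library in turn gave 9 to 13 higher and 1 to 7 lower members. Over all genes it gave 1748 to 3078 higher and 1960 to 4098 lower. All genes called higher were 1592 with a mean FPKM of at least 5, and all genes called lower were 2079 with libraries scaled to recovered reads and 2332 with 708OE_PEG replicates 1 and 2 as 1 sample.

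With the replicate block, 12 members were higher and 4 lower, against 2493 and 3126 over all genes. Same-numbered libraries of the genotypes did not deviate together over the tested genes taken as a whole (correlations of -0.00504, -0.00218 and -0.0449). Whether same-numbered libraries were paired in some other way was not tested.

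Of the named genes, 3 changed sign without passing in any fit: LOC_Os01g27210 (0.02 with libraries scaled to recovered reads, -0.20 to 0.09 with 1 library left out, the highest without NIP_PEG replicate 2), LOC_Os03g04240 (0.02 after quantile normalization, 0.06 with libraries scaled to recovered reads) and LOC_Os10g38740 (-0.13 to 0.12 with 1 library left out, negative without NIP_PEG replicate 1 and, at -0.04, without 708OE_PEG replicate 2). The cause was not tested. Of 39 genes followed, 19 kept direction and call under all 17 alternatives that could be fitted to them. Depth limits the low members: LOC_Os10g38600 rested on 3 to 9 wild-type reads.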
